A study of Mus musculus with 17 samples.

Results

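Mammary macrophages sorted as CXCR4-positive were compared with macrophages sorted as CXCR4-negative by RNA sequencing. Of the 17 mouse samples of the study, 3 were chosen by their sort label: 2 libraries of CXCR4+ macrophages and 1 library of CXCR4- macrophages. All 3 came from the mammary glands of virgin wild type mice, were gated on F4/80 and CD11b and then on surface CXCR4, and received no treatment. The labels give neither the age of the mice nor whether a library came from 1 mouse or from pooled mice, so each p concerns the spread between these samples, which may be technical. Other samples of the study enter below as a description or as a source of spread. They are 8 libraries of macrophages gated on F4/80 and CD11b without a CXCR4 gate, 2 for each genotype: LysmCre+, LysmCre+ with Cxcr4fl/fl, K8Cre+, and K8Cre+ with Cxcl12fl/fl. The 2 LysmCre+ and 2 K8Cre+ libraries are the controls of those knockouts, and both carry a Cre. Cre is driven by the Lysm promoter of myeloid cells or by the K8 promoter of the luminal epithelium. A last library held macrophages kept in culture without treatment.

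CXCR4 is a receptor for the chemokine CXCL12 that signals through inhibitory G proteins and guides leukocytes toward sources of CXCL12. In the mammary gland, macrophages lie within the ductal epithelium, where many carry CX3CR1, and in the surrounding stroma, where many carry LYVE1, CD206 and the folate receptor FOLR2. Resident tissue macrophages take up dying cells, proteins and lipoproteins through scavenger receptors and bridging molecules, and they digest them in lysosomes. Monocytes enter tissue from blood and can share the F4/80 and CD11b gate with macrophages, as can eosinophils and some dendritic cells.

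Values are in CPM, counts per 1e6 reads, and depth was inferred by taking the most frequent low value of each library as 1 read. It came to 28.8 M, 27.2 M and 23.2 M reads in CXCR4+ library 1, CXCR4+ library 2 and the CXCR4- library. On that basis, 3 reads correspond to 0.104, 0.110 and 0.129 CPM. Small noncoding RNA took 11.2% and 11.4% of the reads in the CXCR4+ libraries and 15.2% in the CXCR4- library, and mitochondrially encoded genes took 1.13% to 1.32%. The summed level of the mitochondrially encoded list was 13141, 11275 and 11372 CPM, with none of its 13 genes at least 2-fold to one side.

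Cxcr4 mRNA did not separate the sorted libraries. Cxcr4, on chromosome 1 from 128588199 to 128592293 (GRCm38), had 632 and 875 CPM in the CXCR4+ libraries and 772 CPM in the CXCR4- library, so the CXCR4- value lay between the CXCR4+ values. The log2 difference of CXCR4+ minus CXCR4- was -0.05 (limma, SE 0.32, adjusted p = 0.942), with 95% limits of -1.18 and 1.08. It was 0.11 with median-ratio scaling and ran from -0.29 to 0.18 when a CXCR4+ library was left out. The gate used surface protein, which these files do not hold, so the libraries are named here by their labels. Of the genes of the other gate markers, Itgam, which encodes CD11b, had 285 and 329.6 CPM in the CXCR4+ libraries and 305 CPM in the CXCR4- library, and Adgre1, which encodes F4/80, had 1041 and 1429 CPM in the CXCR4+ libraries and 558 CPM in the CXCR4- library. Further macrophage genes were present in each library but at unequal levels. Csf1r, the receptor of the growth factor CSF1, had 1483 and 1491 CPM in the CXCR4+ libraries and 467 CPM in the CXCR4- library, and Cd68 had 535 and 501 against 191 CPM. Mertk, a receptor for dying cells, had 121 and 117 against 6.38 CPM, and the Fc receptor gene Fcgr1 had 25.2 and 40.8 against 3.28 CPM, so these defining macrophage markers were low in the library labelled CXCR4-. The CXCR4+ libraries thus held each of these 6 markers.

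Across all genes, no gene reached an adjusted p under 0.05 in limma on log2(CPM + 1) over the 3 libraries (0 of 16095, 0%), while 2604 had an unadjusted p under 0.05. With 1 residual degree of freedom, the lowest adjusted p was 0.213. A fit that took the spread from 11 sorted macrophage libraries, these 3 and the 8 of the knockout experiments, passed 83 of 15374 genes (0.54%), with 71 higher in CXCR4+ (0.462%) and 12 lower (0.0781%). Below, a gene passed where its adjusted p was under 0.05 in that fit. Those adjusted p values ran from 1.75e-07 to 0.0474, against 0.213 to 0.374 for the same genes over the 3 libraries. The 83 genes kept their direction in each of the 20 alternative fits run, but most of these could not change it. The filter, the trend and the knockout-experiment libraries do not enter the difference itself. Leaving out a CXCR4+ library could not turn a gene with both CXCR4+ libraries on one side. The fit over the 3 libraries turned on the filter: with a mean of at least 10 CPM it passed 1110 genes, and with at least 1 CPM in at least 2 libraries 1219, and the 83 genes were among those passed by either. Of the 83, 55 also passed without CXCR4+ library 1, 52 without CXCR4+ library 2 and 43 in each of the 10 fits that left out 1 library. Without 1 of the 8 knockout-experiment libraries, 61 to 83 also passed, fewest without a K8Cre+ Cxcl12fl/fl library (61 without replicate 2, 63 without replicate 1). Among genes named below, Itgb7 and Nup210 passed in 2 of the 10 fits that left out 1 library. Chil3, Serinc3, Thbs1 and Timd4 passed in 3, C6, Cbr2, Cd209g, Cd38, Flt3 and Trf in 4, and Ccl4 in 5. Their calls were thus also lost without knockout-experiment libraries, not only without a CXCR4+ library. The 12 lower genes became 7 without CXCR4+ library 2, without LysmCre+ Cxcr4fl/fl replicate 2 or without either K8Cre+ control, and 6 without K8Cre+ Cxcl12fl/fl replicate 2. As a description with no test, 4230 of 16095 genes (26.3%) had both CXCR4+ libraries at least 2-fold to one side of the CXCR4- library on the log2(CPM + 1) scale, 1785 above it (11.1%) and 2445 below it (15.2%). Higher genes made up 42.2% of them, and 52.6% after quantile normalization. Which side held more genes also turned on the filter. With at least 1 CPM in at least 2 libraries, 1788 were above and 1599 below, and at a mean of at least 10 CPM, 862 and 751. The former filter leaves out genes that reach 1 CPM only in the CXCR4- library. The median difference over all genes tested was -0.21, and -0.06 with either scaling. Of the genes below, 61.3% were protein coding, against 82.3% of those above and 77.5% of all tested.

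**Figure D1:**
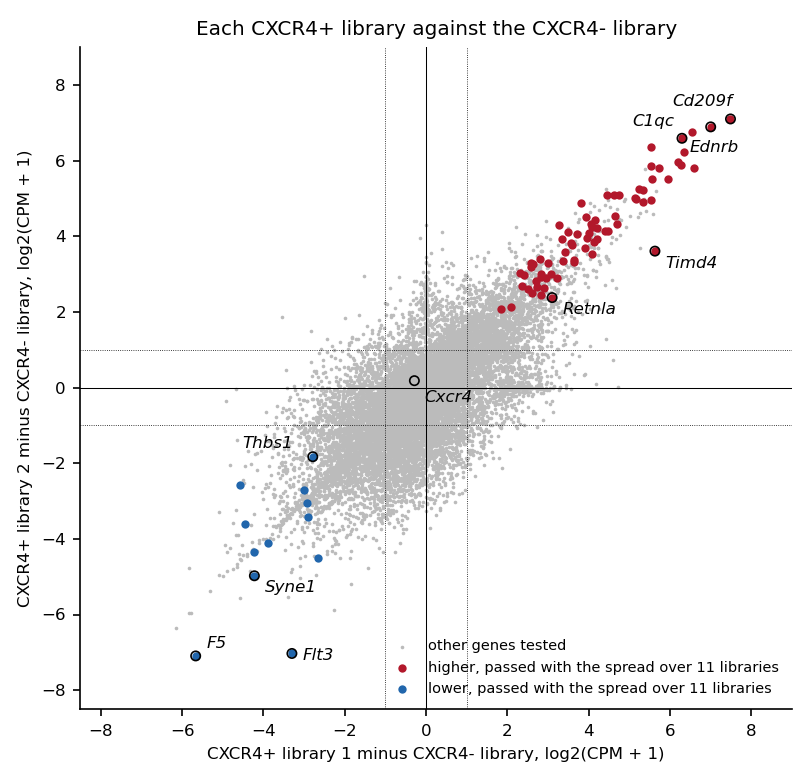
Difference of each CXCR4+ library from the CXCR4- library in log2(CPM + 1), library 1 on the horizontal and library 2 on the vertical axis, for 16095 genes. Coloured points are the 71 higher and 12 lower genes that passed with the spread over 11 libraries, dotted lines mark 2-fold, and Cxcr4 lies near the origin at -0.29 and 0.18.

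Among genes that reached 10 CPM in either library of a pair, the CXCR4+ libraries differed at least 2-fold from each other in 16.8% of genes and from the CXCR4- library in 33.8% and 37.1%. Replicates of the knockout experiments differed by as much in 27.9% to 59.6%, so the spread those libraries lend to the test is wider than that of the CXCR4+ pair, and the CXCR4- library has no replicate of its own. The replicates of the knockout experiments also differed by number: replicate 1 of each of the 4 genotypes had 2.95% to 6.71% of its reads in small noncoding RNA, and replicate 2 had 15.1% to 19.3%. Across genes, however, the log2 shifts from replicate 1 to 2 hardly agreed between genotypes (r = 0.058 to 0.141). With the replicate number as a block among the 8 libraries, a fit chosen after seeing the data, 108 genes passed by limma over 11 libraries, 84 higher and 24 lower. Of the 83, 82 were among them, all but C6. The count of lower genes thus went from 12 to 24.

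Among the genes that passed, those with the highest differences and the largest differences in CPM are given first. Cd209f, a C-type lectin, had 375 and 286 CPM in the CXCR4+ libraries and 1.096 CPM in the CXCR4- library (log2 difference 7.29, SE 0.68 over 11 libraries). Single numbers in brackets after CPM values are this log2(CPM + 1) difference, CXCR4+ minus CXCR4-. Ednrb, the endothelin B receptor, had 408 and 378 CPM in the CXCR4+ libraries and 2.198 CPM in the CXCR4- library (6.94, SE 0.61). Cbr2, a carbonyl reductase, had 116 and 135 CPM in the CXCR4+ libraries and 0.259 CPM in the CXCR4- library (6.65, SE 1.45). That CXCR4- value is one of few reads, and under the alternative settings the Cbr2 difference ran from 4.92 to 8.45. In each of these genes the CXCR4+ values lay near each other and far above the CXCR4- value. C1qc, a chain of the complement starter C1q, had 436 and 535 CPM in the CXCR4+ libraries and 4.57 CPM in the CXCR4- library (6.44, SE 0.82), and Ms4a7, a membrane-spanning protein of macrophages, had 320.4 and 298 against 2.97 CPM (6.29, SE 0.74). Selenop, the selenium carrier protein, had the largest difference in CPM among the genes that passed, with 8187 and 7478 CPM in the CXCR4+ libraries and 201 CPM in the CXCR4- library (5.28, SE 0.45). Serinc3, a multipass membrane protein, followed at 3946 and 4626 against 1094 CPM (1.96). Outside both rankings, the adhesion molecule gene Vcam1 also passed, with 401 and 482 against 33.1 CPM (3.69). Without CXCR4+ library 1 the adjusted p by limma over 10 libraries was above the threshold for Cbr2 (0.0926) and Serinc3 (0.121), and without library 2 for Cbr2 (0.149) and Serinc3 (0.344).

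The 12 genes that passed on the lower side ran from -6.38 to -2.31. F5, coagulation factor V, had 5.45 and 1.397 CPM in the CXCR4+ libraries and 327 CPM in the CXCR4- library (log2 difference -6.38, SE 0.91). Flt3, the cytokine receptor on which dendritic cell precursors depend, had 18.1 and 0.441 CPM in the CXCR4+ libraries and 187 CPM in the CXCR4- library (-5.16, SE 1.03). The CXCR4+ values of F5 and Flt3 lay far apart from each other and below the CXCR4- value. Syne1, which ties the nucleus to the cytoskeleton, had 63.8 and 37.4 CPM in the CXCR4+ libraries and 1209 CPM in the CXCR4- library (-4.600, SE 0.64). Slc2a3, a glucose transporter, had 14.8 and 13.4 against 295 CPM (-4.295), and the kinase gene Lrrk2 had 10.8 and 20.3 against 258 CPM (-4.03). Ace, angiotensin-converting enzyme, had 9.74 and 8.27 against 158 CPM (-3.99), Adam23 had 93.8 and 25.2 against 597 CPM (-3.58), and the integrin gene Itgb7 had 21.7 and 14.9 against 169 CPM (-3.17). Lyst, a regulator of lysosome traffic, had 127 and 117 against 981 CPM (-2.996) and Nup210, a nuclear pore protein, 30.7 and 37.9 against 252 CPM (-2.85). F5, Lrrk2, Lyst, Slc2a3 and Syne1 passed in each of the 10 fits that left out 1 library. By limma over 10 libraries, leaving out CXCR4+ library 1 took the adjusted p past the threshold for Thbs1 (0.458), Ace (0.0524), Itgb7 (0.147) and Nup210 (0.2896), and without library 2 for Flt3 (0.156), Ace (0.0907), Adam23 (0.0842), Itgb7 (0.479) and Nup210 (0.152).

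Genes that passed and stand in none of the 53 lists numbered 20 on the higher side, with differences from 1.96 to 5.08. Slco2b1, an organic anion transporter, had 313 and 284 against 7.85 CPM (5.08), Pmp22, a membrane protein known from myelin, 313 and 655 against 21.5 CPM (4.34), and Rab7b, a small GTPase of the endosome, 254 and 381 against 15.7 CPM (4.22). Ifi207, of the Ifi200 family of DNA sensors, had 1514 and 1438 against 227 CPM (2.697). Nlrp3, the sensor of an inflammasome, had 948 and 1016 against 166 CPM (2.56), Cd38, which breaks down NAD, 221 and 339 against 18.7 CPM (3.804), and Cd93, a receptor with a lectin-like domain, 398 and 626 against 63.8 CPM (2.95). In each of these 7 genes both CXCR4+ values lay above the CXCR4- value. These 7 were chosen from the 20 after their values were seen. By limma over 10 libraries, Nlrp3 did not pass without CXCR4+ library 1, and Nlrp3, Cd38 and Cd93 did not pass without library 2. Such a fit sets a single library against a single library. The difference of Nlrp3 was 2.51 from library 1 alone and 2.61 from library 2 alone.

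Sequence upstream of the annotated start is shown for genes at both ends of the comparison and for Cd209a, the CD209 gene that lay on the lower side. Only stretches of at least 90 bases were shown, and Ednrb, Syne1 and Slc2a3 are not among them. The bases are those of RefSeq on GRCm38.p6, on the gene's strand, and stop before the gene body. Capitals mark a match to a motif, GAGGAAGT of the myeloid factor PU.1 or GGAANNGAA of a joint ETS and IRF site, on either strand.
Cd209f (chr8:4105836-4106014, minus strand): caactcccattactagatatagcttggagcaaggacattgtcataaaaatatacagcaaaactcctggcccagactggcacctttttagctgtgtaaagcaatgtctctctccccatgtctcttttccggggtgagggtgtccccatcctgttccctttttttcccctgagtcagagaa
Cbr2 (chr11:120732115-120732271, minus strand): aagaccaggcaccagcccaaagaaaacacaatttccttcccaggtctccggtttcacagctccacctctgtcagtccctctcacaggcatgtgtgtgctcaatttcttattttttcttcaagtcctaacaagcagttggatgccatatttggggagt
C1qc (chr4:136893066-136893164, minus strand): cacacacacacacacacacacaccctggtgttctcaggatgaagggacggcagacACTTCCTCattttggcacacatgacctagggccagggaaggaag
F5 (chr1:164151585-164151834, plus strand): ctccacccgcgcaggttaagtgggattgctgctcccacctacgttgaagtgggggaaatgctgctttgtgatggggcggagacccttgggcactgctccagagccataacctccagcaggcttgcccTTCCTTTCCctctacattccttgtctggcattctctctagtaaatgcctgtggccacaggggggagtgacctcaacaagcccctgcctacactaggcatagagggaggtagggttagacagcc
Flt3 (chr5:147400490-147400739, minus strand): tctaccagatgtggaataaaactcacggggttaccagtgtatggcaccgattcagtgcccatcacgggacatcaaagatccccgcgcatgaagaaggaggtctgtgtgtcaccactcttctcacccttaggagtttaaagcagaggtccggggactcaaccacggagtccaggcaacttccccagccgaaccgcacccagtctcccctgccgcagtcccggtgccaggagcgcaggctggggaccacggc
Lrrk2 (chr15:91672974-91673174, plus strand): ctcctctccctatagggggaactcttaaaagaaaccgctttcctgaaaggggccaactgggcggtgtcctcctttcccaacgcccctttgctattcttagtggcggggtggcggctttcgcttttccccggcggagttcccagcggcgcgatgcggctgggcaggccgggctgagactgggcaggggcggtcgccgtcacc
Cd209a (chr8:3748985-3749234, minus strand): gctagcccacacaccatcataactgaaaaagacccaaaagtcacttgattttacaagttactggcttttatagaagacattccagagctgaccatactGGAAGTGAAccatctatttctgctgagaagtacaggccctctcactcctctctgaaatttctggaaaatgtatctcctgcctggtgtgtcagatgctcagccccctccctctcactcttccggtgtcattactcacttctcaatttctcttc

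Among these stretches C1qc held the PU.1 letters on the reverse strand at bases 56 to 63 of the run. F5 held the ETS and IRF letters on the reverse strand at bases 128 to 136, and Cd209a held them on the forward strand at bases 99 to 107. Of the 71 higher and 12 lower genes that passed, 50 and 10 had a full RefSeq promoter window. The PU.1 letters were in 5 of the 50 higher genes (10%) and in 0 of the 10 lower genes. They were in 2.82% of the 10467 tested genes with a window and in 659 of all 27025 windows (2.44%). The ETS and IRF letters were in 6 of 50 higher genes (12%), 1 of 10 lower genes (10%), 6.19% of tested genes and 7.01% of all windows. The MAF motif TGCTGAC was in 2 of 50 (4%), 2.98% of tested genes and 3.72% of all. The C/EBP site TTGCGCAA was in 0 of 50, 0.258% of tested genes and 0.167% of all. The KLF site CCACACCC was in 1 of 50 (2%), 3.59% of tested genes and 3.23% of all. Motifs may overlap, and a match of letters is a description of the window.

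Genes of resident stromal macrophages stood higher in the CXCR4+ libraries as a group. Counts of list members, here and below, are given beside the shares over all genes tested, 11.1% above and 15.2% below. The lists were written with earlier results of these data known, so the side on which a list lay is a description and no support. Of 24 genes listed, 23 were tested, 21 had both CXCR4+ libraries at least 2-fold above the CXCR4- library, none had both below, and 16 passed, with a median log2 difference of 4.62 against -0.21 over all genes. Lyve1, a hyaluronan receptor, had 129 and 161 CPM in the CXCR4+ libraries and 1.81 CPM in the CXCR4- library (5.69), and Folr2, the folate receptor of these cells, had 208 and 154 CPM in the CXCR4+ libraries and 2.41 CPM in the CXCR4- library (5.72). The values of both genes in the CXCR4+ libraries lay far above the single CXCR4- value. Timd4, which binds phosphatidylserine on dying cells, had 134 and 32.1 CPM in the CXCR4+ libraries and 1.72 CPM in the CXCR4- library (4.62), with a wide gap between the CXCR4+ libraries. Mrc1, which encodes the mannose receptor CD206, had 2463 and 2766 against 144 CPM (4.17), and Cd163, the haptoglobin-hemoglobin receptor, had 724 and 621 against 47.6 CPM (3.79). Among the secreted products, Igf1 had 514 and 453 against 13.5 CPM (5.06), the chemokine gene Pf4 209 and 219 against 2.93 CPM (5.77), the bridging factor Gas6 193 and 231 against 10.7 CPM (4.18), and F13a1, the transglutaminase of coagulation factor XIII, 1507 and 1485 against 145 CPM (3.36). Stab1, a scavenger receptor, had 652 and 553 against 7.97 CPM (6.07). The summed level of the list was 16868 and 15680 CPM in the CXCR4+ libraries and 688 CPM in the CXCR4- library. It was 4266 to 6960 CPM in the 4 control libraries without a CXCR4 gate and 1935 CPM in culture, tables that were normalized separately. In bulk samples, fewer cells of a type and less RNA per cell cannot be told apart. Without CXCR4+ library 1 the adjusted p by limma over 10 libraries was above the threshold for Timd4 (0.954), and without library 2 for Gas6 (0.0868).

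The genes that mark CX3CR1 ductal macrophages lay on the same side. Of 16 listed and 15 tested, 11 had both CXCR4+ libraries at least 2-fold above, 1 had both below, and 1 passed, with a median of 2.40. Apoe, an apolipoprotein, passed with 774 and 720.3 CPM in the CXCR4+ libraries and 30.04 CPM in the CXCR4- library (4.59). P2ry12, a receptor for nucleotides, had 89.9 and 54.8 against 1.47 CPM (4.85), Tmem119 had 23.5 and 18.2 against 0.129 CPM, the last at the level of 3 reads, and Siglech had 124 and 63.6 against 14.4 CPM (2.54), and none of these 3 passed. Cd9, a tetraspanin, was the member below, at 20.04 and 36.9 against 102 CPM (-1.87). Both subsets of the mammary gland therefore had list members mostly above the CXCR4- library.

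**Figure D2:**
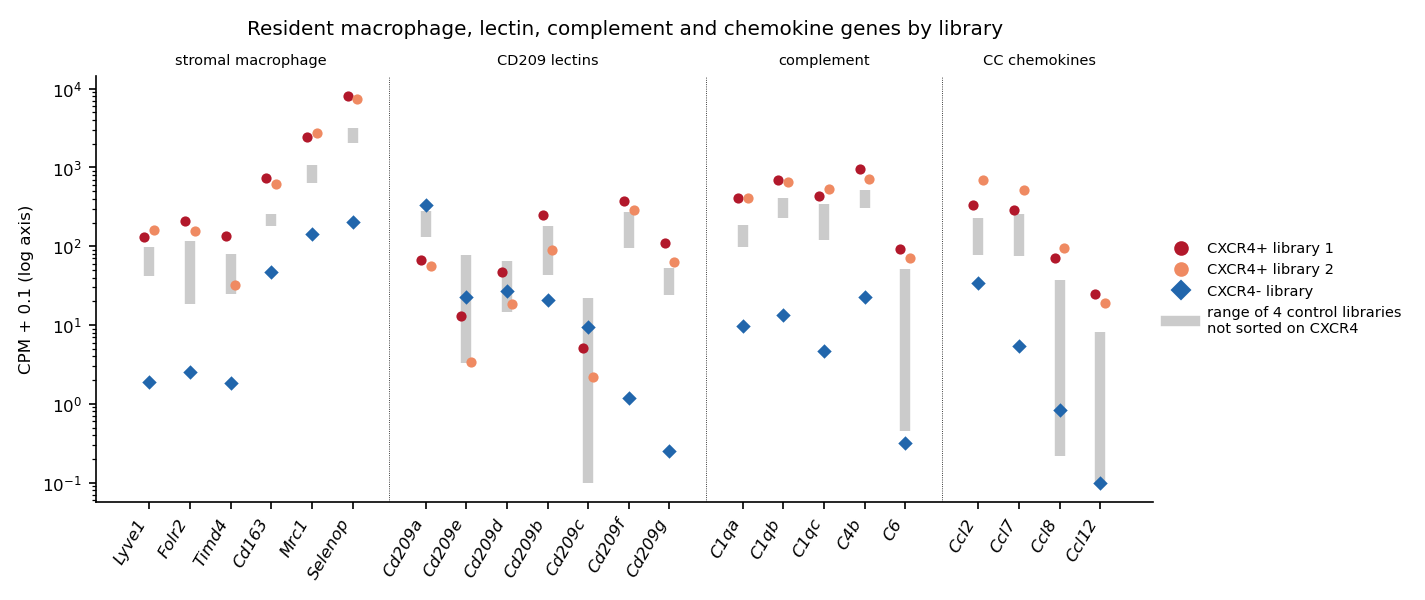
CPM + 0.1 on a log axis for genes of 4 lists in CXCR4+ library 1 (dark red), CXCR4+ library 2 (orange) and the CXCR4- library (blue diamond), with a grey bar for the range of 4 control libraries not sorted on CXCR4, from tables normalized separately. Cd209f stood at 375 and 286 CPM against 1.10 CPM, while Cd209a stood at 67.0 and 56.0 against 333 CPM.

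The CD209 lectins, a cluster of 7 genes on chromosome 8 that bind glycans, were split. Cd209f and Cd209g passed on the higher side, Cd209b was at least 2-fold above without passing, and Cd209a was at least 2-fold below without passing. Cd209g, from 4134098 to 4137707, had 111 and 63.5 CPM in the CXCR4+ libraries and 0.154 CPM in the CXCR4- library (6.200, SE 1.44), and its CXCR4- value stands close to that of 3 reads. Cd209b, from 3917655 to 3926844, had 251 and 88.3 CPM in the CXCR4+ libraries and 20.7 CPM in the CXCR4- library (2.79). Cd209a, from 3743397 to 3748984, the member named DC-SIGN in mice, had 66.98 and 56.03 CPM in the CXCR4+ libraries and 333 CPM in the CXCR4- library (-2.42). Its 2 CXCR4+ values lay close together and the CXCR4- value lay apart from them. The other members did not have both CXCR4+ libraries 2-fold to one side: Cd209d had 46.5 and 18.3 against 27.1 CPM, Cd209e 13.02 and 3.27 against 22.8 CPM and Cd209c 5.001 and 2.096 against 9.44 CPM. Reads of near-identical family members, here and for the MS4A, SIRP, CD300 and Ifi200 genes, could be split by the counting in ways that the sources used here do not give. By limma over 10 libraries, leaving out CXCR4+ library 1 took the adjusted p past the threshold for Cd209g (0.516), and without library 2 for Cd209g (0.2301).

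The MS4A genes on chromosome 19 were split too, with 4 of 11 tested members at least 2-fold above, 2 below and 1 passing, which was Ms4a7. The shares of all genes tested were 11.1% above and 15.2% below. Ms4a14 had 144 and 84.4 against 4.66 CPM (4.298) without passing, and Ms4a4c, a gene of classical monocytes, had 70.1 and 99.8 against 218 CPM (-1.37). Of 24 other C-type lectins, 7 were above and 1 below, with Mrc1 the member that passed. Clec10a had 535 and 422 against 102 CPM, and Cd207, langerin, had 10.8 and 17.8 against 0.0431 CPM with the CXCR4- value under that of 3 reads.

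Complement genes included some of the largest differences. Of 30 listed and 26 tested, 14 had both CXCR4+ libraries at least 2-fold above, 3 had both below and 8 passed, all on the higher side, with a median of 1.76. The C1q chains, which opsonise dying cells and immune complexes, lie side by side on chromosome 4. C1qa had 405 and 405 CPM in the CXCR4+ libraries and 9.74 CPM in the CXCR4- library (5.24), C1qb had 686 and 660.5 CPM in the CXCR4+ libraries and 13.5 CPM in the CXCR4- library (5.54), and C1qc is given above. In each of the 3 chains the CXCR4+ values lay close together and far above the CXCR4- value. C4b, a later component, had 943 and 706 against 22.4 CPM (5.12), and C6, part of the membrane attack complex, 93.3 and 70.8 against 0.216 CPM (6.08). The CXCR4- value of C6 is one of few reads, and under the alternative settings its difference ran from 4.34 to 8.01. Receptors for the complement fragments lay on the same side, with C5ar1 at 524 and 674 against 18.7 CPM (4.92) and C3ar1 at 1125 and 1379 against 62.7 CPM (4.29). C6 did not pass by limma over 10 libraries when either CXCR4+ library was left out. Its difference was 6.28 from library 1 alone and 5.88 from library 2 alone.

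Efferocytosis is the uptake of dying cells by receptors, bridging molecules and cytoskeletal adaptors. In that list 10 of 23 tested genes were at least 2-fold above, 2 below and 6 passed, all higher, with a median of 0.93. Axl, a TAM receptor, had 452 and 504 CPM in the CXCR4+ libraries and 41.5 CPM in the CXCR4- library (3.49), and its bridging ligand Gas6 passed as well, while Mertk (4.02) did not pass. The cholesterol exporter Abca1 had 1777 and 2022 against 249.8 CPM (2.92). Below were Itgb3, at 5.695 and 6.58 against 53.8 CPM, and the adaptor Elmo1, at 177 and 179 against 389.5 CPM. Scavenger receptors had 11 of 18 tested members above, 1 below and 5 that passed, with a median of 1.40. Cd36, which takes up fatty acids and oxidised lipoproteins, had 1273 and 1936 CPM in the CXCR4+ libraries and 211 CPM in the CXCR4- library (2.89), whereas Olr1, another receptor of oxidised lipoproteins, had 35.3 and 31.8 against 137 CPM. Among Fc receptors, 6 of 13 were above and 1 below, and none passed. Without CXCR4+ library 2 the adjusted p by limma over 10 libraries was above the threshold for Cd36 (0.0799).

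Lysosomal genes lay on the CXCR4+ side. All 33 genes of the list were tested, each had a difference above 0, 19 had both CXCR4+ libraries at least 2-fold above, none had both below, and 4 passed, with a median of 1.32. Ctsb, the protease cathepsin B, had 2833 and 3038 CPM in the CXCR4+ libraries and 431 CPM in the CXCR4- library (2.76). Lgmn, the protease legumain, had 926 and 1382 CPM in the CXCR4+ libraries and 90.7 CPM in the CXCR4- library (3.63). Grn, progranulin, had 978 and 754 against 137 CPM (2.64), and Atp6v1a, a subunit of the proton pump, had 559 and 927 against 112 CPM (2.67). In these 4 genes both CXCR4+ values lay above the CXCR4- value and closer to each other than to it. By limma over 10 libraries, leaving out CXCR4+ library 1 took the adjusted p past the threshold for Grn (0.1201), and without library 2 for Atp6v1a (0.327).

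Lipid handling genes had 11 of 22 tested members above, 1 below and 5 that passed, with a median of 1.25. Dab2, an endocytic adaptor, had 1189 and 982 against 63.6 CPM (4.07), and Pltp, which transfers phospholipid between lipoproteins, had 940.2 and 891 against 111 CPM (3.04). Trem2, a lipid receptor, had 37.02 and 14.3 against 1.42 CPM (3.32) without passing. Of 20 genes of iron and heme handling, 9 were above, none below and 3 passed, with a median of 1.10. Slc11a2, the iron importer DMT1, had 387 and 474 against 47.8 CPM (3.14) and Trf, transferrin, 636 and 801 against 123 CPM (2.52). Hmox1, heme oxygenase, had 885 and 1894 CPM in the CXCR4+ libraries and 362 CPM in the CXCR4- library (1.84), a gap of more than 2-fold between the CXCR4+ libraries, and it did not pass. Trf did not pass by limma over 10 libraries when either CXCR4+ library was left out, nor did Slc11a2 without library 2. From library 1 alone and library 2 alone, the differences were 2.36 and 2.69 for Trf and 2.99 and 3.28 for Slc11a2.

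Genes of alternative activation went both ways, with 8 of 16 above, 5 below, 4 passing as higher and 1 as lower. Retnla, a resistin-like protein induced by IL-4, had 2444 and 1479.5 CPM in the CXCR4+ libraries and 284 CPM in the CXCR4- library (2.74). Chil3, a chitinase-like protein induced by the same cytokine and also made by monocytes, was lower, with 2.99 and 14.96 CPM in the CXCR4+ libraries and 94.7 CPM in the CXCR4- library (-3.58). Among matrix proteases and inhibitors 12 of 29 were above, 5 below, 2 passed as higher and 1 as lower, which was Adam23. Plau, urokinase, had 618 and 784 against 46.1 CPM (3.89), and Timp2, a protease inhibitor, 417 and 346 against 55.3 CPM (2.76). Mmp13, a collagenase, had 219 and 158 against 3.32 CPM (5.43) without passing. Without CXCR4+ library 1 the adjusted p by limma over 10 libraries was above the threshold for Retnla (0.0539), Chil3 (0.528) and Timp2 (0.289), and without library 2 for Timp2 (0.146).

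Chemokine ligands lay on the higher side or did not separate. Of 14 CC chemokines tested, 6 were at least 2-fold above, none below, and 3 passed, with a median of 0.90. Ccl2, the main ligand of CCR2 on monocytes, had 334 and 683 CPM in the CXCR4+ libraries and 33.8 CPM in the CXCR4- library (3.78). Its neighbour Ccl7 on chromosome 11 had 292 and 515 CPM in the CXCR4+ libraries and 5.35 CPM in the CXCR4- library (5.94), and Ccl8 had 70.8 and 94.7 against 0.733 CPM (5.58) without passing. Ccl12, of the same cluster, was listed at 0 in the CXCR4- library and had 24.8 and 18.8 CPM in the CXCR4+ libraries. The 4 genes lie between 82035571 and 82116799, and each had both CXCR4+ libraries above the CXCR4- library. Ccl4, a chemokine of inflammation, had 578 and 955 against 95.997 CPM (2.94). Among CXC and other chemokines, 7 of 11 were above, none below and 1 passed, which was Pf4, with a median of 1.32. Cxcl12 itself had 66.3 and 46.9 CPM in the CXCR4+ libraries and 23.4 CPM in the CXCR4- library (1.22) and did not pass. By limma over 10 libraries, leaving out CXCR4+ library 2 took the adjusted p past the threshold for Ccl4 (0.422).

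Of 23 receptors for chemoattractants, 9 were above, 5 below and 3 passed, which were Ccr1 at 261 and 294 against 20.8 CPM (3.67), C3ar1 and C5ar1. Cmklr1, the chemerin receptor, had 87.5 and 68.1 against 2.198 CPM (4.61) without passing. In the list of interleukins, Tnf and Ptgs2, 8 of 24 were above, 3 below and 1 passed. Il10, the anti-inflammatory cytokine, had 129.6 and 180.4 CPM in the CXCR4+ libraries and 4.31 CPM in the CXCR4- library (4.86, SE 1.05). Tnf had 372 and 415 against 131 CPM and Il1a 444 and 245 against 60.9 CPM, both without passing. The NF-kB factors and inhibitors had 1 of 16 above and 1 below, with a median of -0.13. Il10 did not pass by limma over 10 libraries when either CXCR4+ library was left out, nor did Ccr1 without library 2. From library 1 alone and library 2 alone, the differences were 4.62 and 5.09 for Il10 and 3.59 and 3.76 for Ccr1.

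Growth factors that macrophages can supply to the epithelium had more members above the CXCR4- library than below it. Of 29 tested, 11 were above, 2 below and 2 passed, Igf1 and Grn, with a median of 1.26. Pdgfc had 65.5 and 52.6 against 1.47 CPM (4.597), Hbegf, an EGF receptor ligand, 144 and 204 against 23.9 CPM, and Areg, another, 19.6 and 23.9 against 8.45 CPM, none of which passed. Vegfa, the vascular growth factor, was on the other side, with 120.5 and 201 CPM in the CXCR4+ libraries and 648 CPM in the CXCR4- library (-2.05), also without passing. Of 19 Wnt ligands, 5 were tested, 2 were above and 2 below. Wnt11 had 13.3 and 1.996 against 92.6 CPM (-3.84), Wnt5a 3.75 and 4.04 against 1.16 CPM and Wnt4 4.202 and 1.36 against 4.05 CPM. Of 27 Notch pathway genes 4 were above and 2 below, beside 11.1% above and 15.2% below over all genes tested. Their median was -0.20 and none passed. Dtx4, a ubiquitin ligase linked to the pathway, had 185 and 193 against 14.8 CPM (3.58), and the ligand Dll1 had 3.44 and 8.199 against 7.5004 CPM.

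Pattern recognition genes included 9 of 21 Toll-like receptor genes above and 1 below, with a median of 0.89. The coreceptor Cd14 passed, with 1016 and 1537 CPM in the CXCR4+ libraries and 144 CPM in the CXCR4- library (3.105). Tlr2 had 741 and 961 against 230.2 CPM, Tlr4 109 and 98.2 against 14.5 CPM and Tlr7 349.8 and 324 against 72.6 CPM without passing, while Tlr11, a receptor of protozoan profilin, had 14.3 and 0.257 against 72.6 CPM. Among 29 interferon-stimulated genes 10 were above, none below and 1 passed, with a median of 0.59. That gene, Oasl1, a regulator of the interferon response, had 299.6 and 469 CPM in the CXCR4+ libraries and 12.7 CPM in the CXCR4- library (4.78). Paired inhibitory and activating receptors were divided, with 9 of 38 above, 11 below and 2 passing. Siglec1, the sialic acid receptor of resident macrophages, had 923 and 614 against 18.9 CPM (5.24) and Cd33 713 and 695 against 91.8 CPM (2.92). On the lower side, without passing, were Cd300lf at 20.2 and 18.7 against 255 CPM and Siglecg at 5.32 and 7.28 against 88.9 CPM. Without CXCR4+ library 1 the adjusted p by limma over 10 libraries was above the threshold for Cd33 (0.0795), and without library 2 for Cd14 (0.0809) and Cd33 (0.0762).

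Transcription factors of macrophages and related cells also lay in both directions, with 11 of 43 above, 10 below and 2 passing, and a median of 0.13. Maf had 275 and 218 CPM in the CXCR4+ libraries and 20.98 CPM in the CXCR4- library (3.48), and it is known to be high in resident macrophages. Among those at least 2-fold below, none passed. Bcl11a, a factor of plasmacytoid dendritic and lymphoid cells, had 1.77 and 3.05 against 81.7 CPM (-4.63), Zbtb46, a factor of conventional dendritic cells, 31.9 and 17.7 against 145 CPM (-2.55), and Ikzf3 4.41 and 4.23 against 36.8 CPM (-2.83). Spi1, which encodes PU.1, had 71.1 and 66.2 against 95.1 CPM. In the list of general macrophage identity 8 of 23 were above, 2 below and 2 passed, Cd14 and Cd33. The 2 below were Ptprc, the pan-leukocyte CD45 gene, at 920.3 and 798 against 2040.3 CPM (-1.25), and Csf2rb, a chain of the GM-CSF, IL-3 and IL-5 receptors, at 338 and 384 against 1060.0 CPM (-1.55). By limma over 10 libraries, leaving out CXCR4+ library 1 took the adjusted p past the threshold for Maf (0.127), and without library 2 for Maf (0.0503).

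**Figure D3:**
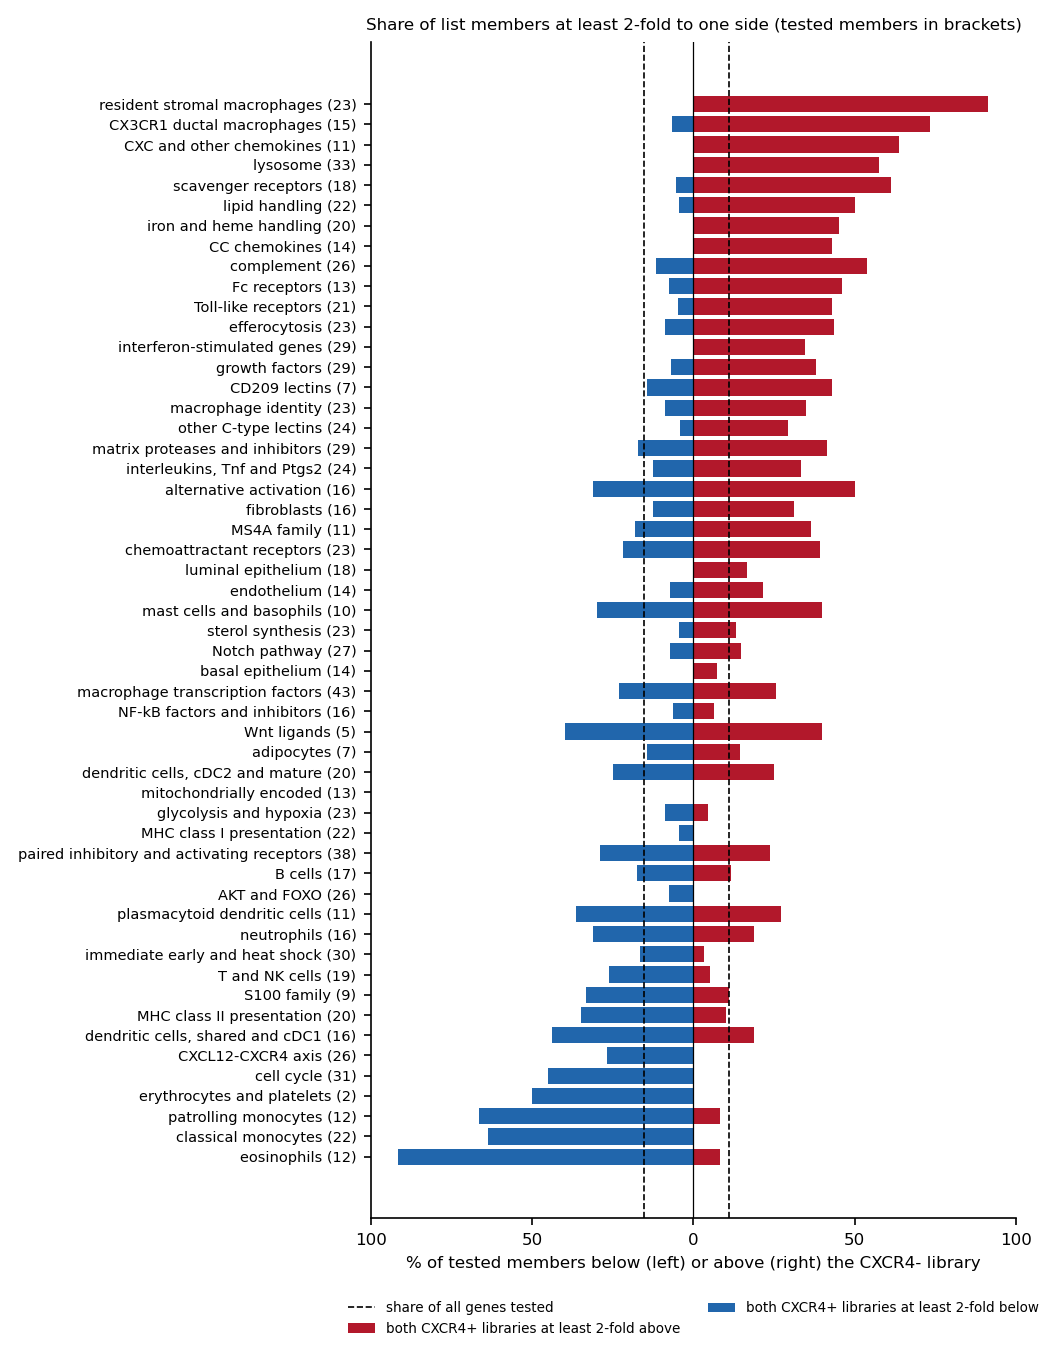
Share of tested members of each of 53 gene lists with both CXCR4+ libraries at least 2-fold above (red, right) or below (blue, left) the CXCR4- library, with the number tested in brackets. Dashed lines mark the shares over all genes tested, 11.1% above and 15.2% below, and the stromal list stands at 21 of 23 above.

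Genes of blood monocytes lay on the CXCR4- side. All 22 classical monocyte genes were tested, none had both CXCR4+ libraries at least 2-fold above, 14 had both below and 2 passed as lower, with a median of -1.42. Thbs1, thrombospondin 1, had 369 and 718 CPM in the CXCR4+ libraries and 2553 CPM in the CXCR4- library (-2.31), and Chil3, given above, was the other. Neither passed by limma over 10 libraries without CXCR4+ library 1, where the difference was -1.83 for Thbs1 and -2.58 for Chil3. Each passed in 3 of the 10 fits that left out 1 library. Plac8 had 8.09 and 33.7 CPM in the CXCR4+ libraries and 113 CPM in the CXCR4- library (-2.69), and Mcemp1 had 2.22 and 2.35 against 71.6 CPM (-4.47), without passing. Ccr2 had 490.2 and 449 against 629.6 CPM and Ly6c2 65.8 and 141 against 122 CPM, so these defining markers were less than 2-fold to one side. The summed list stood at 2468 and 2916 CPM in the CXCR4+ libraries, 6676 CPM in the CXCR4- library and 5298 to 6408 CPM in the controls. Of 12 patrolling monocyte genes 8 were below and 1 above. Ace passed as lower, but not without either CXCR4+ library (adjusted p by limma 0.0524 and 0.0907), and Cd36 passed as higher, but not without CXCR4+ library 2 (adjusted p by limma 0.0799). Adgre4 had 69.04 and 80.7 against 356 CPM (-2.24) without passing. The summed patrolling list was 1836 and 2454 CPM in the CXCR4+ libraries and 2072 CPM in the CXCR4- library, which lay between them.

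Genes of conventional dendritic cells were more mixed. Of 16 tested shared and cDC1 genes, 7 were below, 3 above and 1, Flt3, passed as lower, with a median of -1.38. Kit had 10.7 and 21.6 against 126 CPM (-2.97), whereas Xcr1, a receptor particular to cDC1 cells, had 24.2 and 28.2 against 5.43 CPM. Of 20 cDC2 and mature dendritic cell genes 5 were below and 5 above, with Ccr7 at 54.3 and 62.2 against 162 CPM and Dpp4 at 32.6 and 27.4 against 189.9 CPM (-2.63). Plasmacytoid genes had 4 of 11 below and 3 above. The summed shared and cDC1 list was 1209 and 1194 CPM in the CXCR4+ libraries, 2321 CPM in the CXCR4- library and 1601 to 2394 CPM in the controls.

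Antigen presentation by MHC class II separated into its parts. The classical class II genes did not separate, with H2-Ab1 at 3472 and 4366 against 4171 CPM, H2-Aa at 9874 and 13919 against 9519 CPM and the invariant chain gene Cd74 at 6114 and 8342 against 6339 CPM. Lower without passing were the peptide-loading genes H2-DMb2 at 12.7 and 25.6 against 186 CPM (-3.29) and H2-Oa at 10.6 and 3.71 against 73.7 CPM (-3.34), and Ciita, the master regulator of the class, at 164 and 86.2 against 501 CPM (-2.07). The costimulatory genes Cd86 at 430.0 and 481 against 128 CPM (1.82) and Cd83 at 1178 and 1667 against 465 CPM (1.59) were the 2 above. In all, 7 of 20 were below, with a median of -0.52 and none passing. Class I genes had 1 of 22 below and none above.

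Most eosinophil genes lay on the CXCR4- side, although none of the 10 members in the fit over 11 libraries passed, and Epx and Gata1 were not in that fit. Of 17 listed, 12 were tested, 11 had both CXCR4+ libraries at least 2-fold below and 1 had both above, with a median of -2.85. Alox15, a lipoxygenase, had 0.278 and 0.1103 CPM in the CXCR4+ libraries and 90.05 CPM in the CXCR4- library (-6.26), and Ccr3, the eotaxin receptor, had 1.94 and 3.897 CPM in the CXCR4+ libraries and 71.99 CPM in the CXCR4- library (-4.26). Siglecf had 3.54 and 0.0368 CPM in the CXCR4+ libraries and 46.8 CPM in the CXCR4- library (-4.46). Il5ra, the IL-5 receptor chain, had 0.0347 and 0 CPM against 20.7 CPM, and Epx, the eosinophil peroxidase, was listed at 0 in both CXCR4+ libraries and had 3.19 CPM in the CXCR4- library. Alox15, Il5ra and Epx were near or at 0 in the CXCR4+ libraries. With Prg2, Gata1 and Clec4a4, they reached the mean of 1 CPM only through the CXCR4- library. The filter thus fixed the direction of these members in advance, and their place among the genes below is no support. The summed list was 427 and 443 CPM against 1536 CPM, with Csf2rb, which macrophages express too, its largest member, and 722 to 1234 CPM in the controls. The part of such cells in the differences above was not tested.

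Mast cell and basophil genes lay on both sides, with a median of -0.20 over the 10 tested. Of the mast cell proteases, Cpa3 had 17.8 and 14.96 against 0.172 CPM (3.88), Cma1 13.9 and 18.3 against 0.119 CPM and Mcpt4 13.1 and 10.5 against 0.259 CPM, with the CXCR4- values at or near those of 3 reads. In the list of mast cells and basophils 4 of 10 were above and 3 below, and 1 passed as higher, Hpgds, a prostaglandin synthase that macrophages also make, at 244 and 188 against 8.49 CPM (4.502). The 3 below, none of which passed, were Kit, the stem cell factor receptor, given above, the cytokine gene Il4 at 0.0347 and 0 against 11.1 CPM (-3.57), and Hdc, the enzyme that makes histamine, at 12.4 and 6.91 against 26.7 CPM (-1.43). Neutrophil genes had 3 of 16 above and 5 below, and Ly6g was not analysed here. B cell genes had 2 of 17 above and 3 below, with Cd79a at 0.0347 and 0.184 against 5.59 CPM, and T and NK cell genes 1 of 19 above and 5 below, with Cd3e at 1.35 and 7.94 against 5.17 CPM. Luminal epithelial genes had 3 of 18 above and none below, and their sum was 446, 919 and 407 CPM, so CXCR4+ library 2 stood apart from both others. Krt8 had 8.81 and 53.1 against 10.2 CPM and Epcam 12.7 and 49.8 against 28.6 CPM. Basal epithelial genes had 1 of 14 above, endothelial genes 3 of 14 above and 1 below, and adipocyte genes 1 of 7 above and 1 below. Fibroblast genes had 5 of 16 above and 2 below and summed to 297, 638 and 199 CPM, again highest in CXCR4+ library 2. Of 12 erythrocyte and platelet genes 2 were tested and 1 was below. Il4 and Cd79a met the filter only through the CXCR4- library, and Cpa3, Cma1 and Mcpt4 only through the CXCR4+ libraries. Over all genes tested, 11.1% were above and 15.2% below, and the part of these cell types in the comparison was not tested. Hpgds did not pass by limma over 10 libraries without CXCR4+ library 1. Its difference was 4.69 from library 1 alone and 4.32 from library 2 alone.

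**Figure D4:**
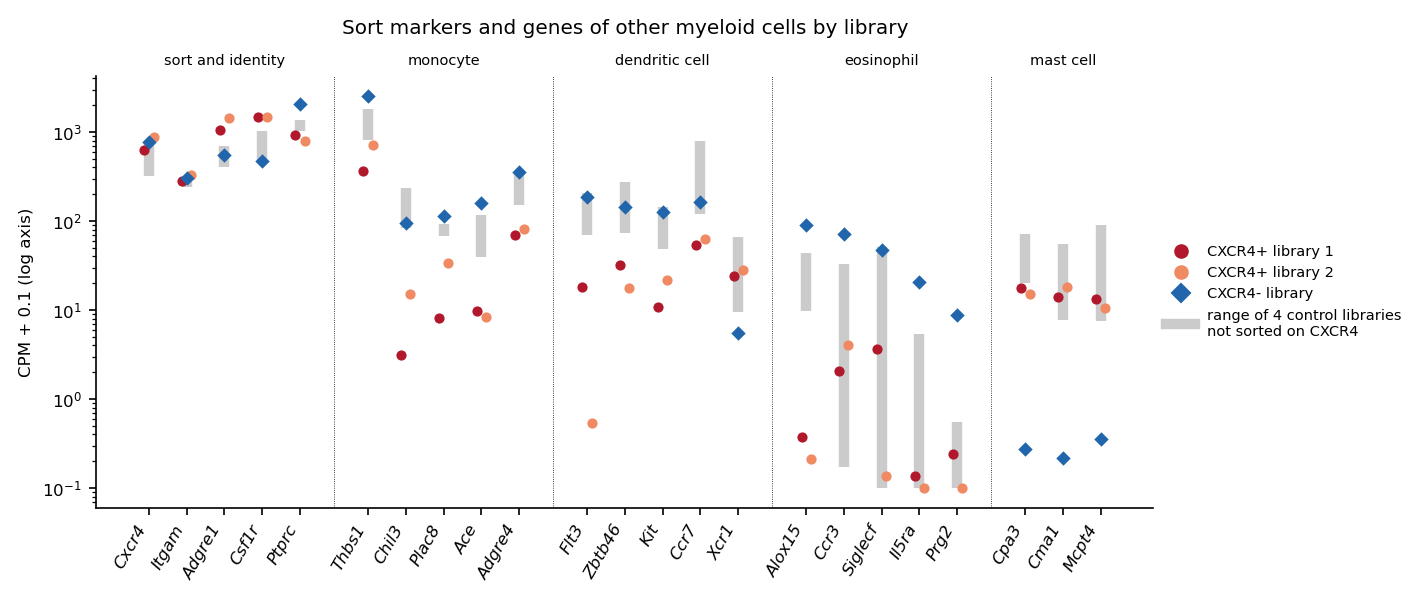
CPM + 0.1 on a log axis for sort markers and genes of monocytes, dendritic cells, eosinophils and mast cells, with symbols for the 3 sorted libraries and a grey bar for 4 control libraries not sorted on CXCR4. Cxcr4 and Itgam overlap between the sorted libraries, while Ccr3 stands at 1.94 and 3.90 CPM against 72.0 CPM.

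Of the 26 genes of the CXCL12 and CXCR4 axis, 7 had a difference above 0, with Cxcl12 the highest at 1.22. All 26 were tested, none had both CXCR4+ libraries at least 2-fold above, 7 had both below and none passed, with a median of -0.35. Among those below were Dpp4, a peptidase that cleaves CXCL12, and the regulators of receptor signalling Grk3 at 170.2 and 97.2 against 457 CPM (-1.82) and Rgs2 at 212 and 181 against 582 CPM (-1.57). Ackr3, the other CXCL12 receptor, had 6.46 and 11.9 against 7.76 CPM, and Gnai2, a G protein subunit, 261 and 332 against 467 CPM. AKT and FOXO genes had none of 26 above and 2 below, with a median of -0.18, and Akt1 had 65.5 and 48.97 against 71.9 CPM.

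Proliferation genes lay lower or did not separate, and none passed. Of 31 cell cycle genes 14 had both CXCR4+ libraries at least 2-fold below and none had both above, with a median of -1.21. Mki67 had 79.5 and 105 against 170.5 CPM and Mcm5, a replication helicase subunit, 13.6 and 21.99 against 58.2 CPM (-1.69), and the CXCR4+ values of both genes lay under the CXCR4- value. Immediate early and heat shock genes, which tissue dissociation can induce, had 5 of 30 below and 1 above, beside 15.2% below and 11.1% above over all genes tested. Hsph1 had 723 and 459 against 1941 CPM (-1.75). Glycolysis and hypoxia genes had 1 of 23 above and 2 below, sterol synthesis genes 3 of 23 above and 1 below, and S100 genes 1 of 9 above and 3 below, and none passed in these 3 lists.

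**Figure D5:**
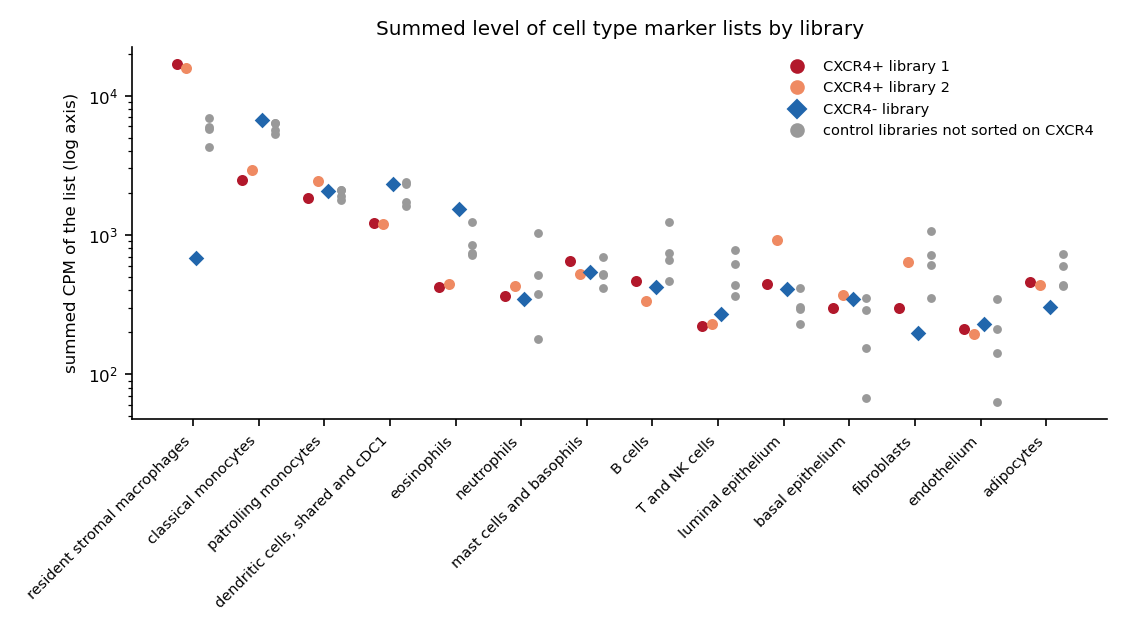
Summed CPM on a log axis of 14 cell type marker lists in the 3 sorted libraries (red and orange points, blue diamond) and in 4 control libraries not sorted on CXCR4 (grey). The stromal list stands at 16868 and 15680 CPM in the CXCR4+ libraries and at 688 CPM in the CXCR4- library, with the controls between.

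Levels in the 4 control libraries, which were not sorted on CXCR4, were set beside the genes that passed. In 64 of the 71 higher genes and 10 of the 12 lower genes, the 4 control values lay between the CXCR4- value and the nearer CXCR4+ value. The same held for 334 of all 15374 genes in both tables (2.17%), for 183 of the 1708 of them at least 2-fold above (10.7%) and for 108 of the 2191 at least 2-fold below (4.93%). The fit that chose the genes that passed also took its spread from these control libraries, so these counts are no independent evidence. C1qc had 119 to 347 CPM and Selenop 2018 to 3164 CPM in the controls. F5 had 32.1 to 161 CPM there and Syne1 141 to 274 CPM, below the CXCR4- library for both genes. Exceptions on the higher side were Apoe, Cbr2, Ccl4, Cd38, Plau, Retnla and Timd4, and on the lower side Chil3 and Flt3. These levels come from tables normalized separately and are a description with no test.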

How the data were processed

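The values were deposited by the authors as log2 CPM with an offset of 0.0001, 1 table for the CXCR4 sort and 1 for the knockout experiments. Per the submitters' processing notes, reads were processed with STAR 2.7.8a and Partek against a genome build given as hg38, although the genes are mouse genes whose starts match GRCm38. Strand handling is not given in the sources used here. Per the labels' protocols, ribosomal RNA was removed before library construction. CPM values were recovered by undoing the log, and 77.7% to 80.6% of values up to 50 reads were whole reads within 0.05, too few for a test on counts. The table's lowest maximum per gene was 1.74 CPM, so genes below that were absent from it.

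limma 3.58.1 in R 4.3.3, with a mean-variance trend, was fitted to log2(CPM + 1) over genes with a mean of at least 1 CPM. It set 2 libraries against 1, with Benjamini-Hochberg adjustment over all genes. It was also run on simulated data, drawn for each gene with the same spread in each library. Such data cannot test a CXCR4- library without a replicate. Limits are 95% confidence limits. A second fit took the spread from 11 libraries in 6 groups. Differences are on that scale and understate low genes. Genes were to be named as the 15 highest and 15 lowest differences and the 10 largest in CPM among passing genes of at least 10 CPM, and the members of 53 lists. With 0 passing genes, the rule was applied to the fit over 11 libraries, a change made after values were seen. The members and lists were chosen with earlier results of these data known. Alternatives were other pseudocounts, filters, scalings, no trend, leaving out libraries and a replicate block in the knockout experiments. Sequences come from RefSeq on GRCm38.p6. Proteins were not used here, and neither were the treated cultures or a table of another cell population. Results for a few genes are not reported here.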

Additional observations from a re-analysis of the deposited data

How the results depend on the processing

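Of the 16095 genes tested over 3 libraries, 0 passed, and 0 passed with a pseudocount of 0.1 or 4 CPM, without the filter, with median-ratio scaling, with quantile normalization and without the trend. A mean of at least 10 CPM gave 1110 genes, 677 higher and 433 lower. At least 1 CPM in at least 2 libraries gave 1219, 729 higher and 490 lower. The spread over 11 libraries gave 83, 71 higher and 12 lower. The degrees of freedom that limma borrowed across genes had a median of 1.57 in the main fit over 3 libraries. That median was 31.8 at a mean of at least 10 CPM and 20.2 with the spread over 11 libraries. With at least 1 CPM in at least 2 libraries it was infinite, so each gene's own spread did not enter that fit. The cause of these differences was not tested. Leaving out 1 library of the 11 at a time, the knockout-experiment libraries by a choice made after seeing the data, gave 52 to 104 genes, 45 to 86 higher and 6 to 18 lower. With the replicate number of the knockout experiments as a block, also chosen after seeing the data, it gave 108, 84 higher and 24 lower, with 82 of the 83 among them. Without a test, 3895 genes (1698 higher and 2197 lower) had both CXCR4+ libraries at least 2-fold to one side and farther from the CXCR4- library than from each other. The 1785 genes at least 2-fold above became 937 with a pseudocount of 4 CPM, 862 at a mean of 10 CPM and 2642 to 3046 without 1 CXCR4+ library. The 2445 below became 1384, 751 and 3674 to 4398, and 1599 with at least 1 CPM in at least 2 libraries. The Cxcr4 difference turned from -0.05 to 0.11 with median-ratio scaling and ran from -0.29 to 0.18 without 1 CXCR4+ library. No paired analysis was possible because the CXCR4- group holds 1 library, so the groups share fewer than 2 replicate numbers. Depth limits values near 3 reads, 0.104 to 0.129 CPM.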
